A study of Mus musculus with 4 samples.

Results

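Krt5, Krt15, Krt1, Krt77 and Krt78 are keratins of the basal and suprabasal epidermis on the gene panel, 5 of its 328 genes and 5 of its 15 keratins. The list is set by gene names and applies no threshold to measured values. Their transcripts were counted in every cell of 4 Xenium slides, a method that decodes single RNA molecules at their position in a tissue section by rounds of probe imaging. The mice carried TRE-Pitx1 and Krt5-rtTA, in which doxycycline switches on Pitx1 in cells with an active Krt5 promoter. Doxycycline was given in the diet, once the hair cycle had reached telogen, to the PITX1+ mice and not to their Control littermates, so that doxycycline itself and Pitx1 induction cannot be told apart. Unwounded skin came on a female slide with sections Control 1, Control 2, PITX1+ 1 and PITX1+ 2 and on a male slide with Control 3, PITX1+ 3 and PITX1+ 4. A further slide held 7 sections of buccal mucosa, the lining of the cheek, named Buccal 1 to 7, and another held male skin on day 4 after wounding, with 1 Control wound and 2 PITX1+ wounds. The paper took its buccal mucosa from control mice, so Pitx1 was not induced there. The labels give each slide but not each section, so the condition of a skin section was taken from its position on the slide. With that reading, 7 of 7 unwounded skin sections lay nearest to a section listed for their own condition in the study's supporting data. The number compared was that of cells with at least 3 detected genes, not of all cells. The study lists as many Control skins, PITX1+ mice and buccal mucosae as there are unwounded sections, so each section was read as a separate sample, although the labels tie no section to a mouse. The p-values measure the spread between sections.

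Keratins are intermediate filament proteins that assemble as pairs of a type I and a type II chain. Krt5 is the type II chain of the basal layer, which sits on the basement membrane and divides, and Krt15 is a type I chain of basal cells that is also known as a marker of the hair follicle bulge. Krt1 is the type II chain that replaces Krt5 when cells leave the basal layer of the epidermis. Krt77, also called K1b, and Krt78 are less studied type II chains of differentiating cells. Stratified epithelia that do not form a dry surface, such as much of the oral lining, use other suprabasal pairs, of which Krt4 is the type II member. In the mouse annotation Krt5, Krt1, Krt77 and Krt78 lie on chromosome 15 within a run of 13 genes from Krt5 to Krt78, with Krt1 and Krt77 as direct neighbours, whereas Krt15 lies on chromosome 11.

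The 250 bases before the annotated start of Krt5, whose promoter also drives the transgene's activator, are shown with those of Krt77 and Krt78, suprabasal members that differed in opposite directions between buccal mucosa and skin. Krt1, which differed in the direction of Krt77, and Krt15 are named only. They are from RefSeq on GRCm38.p6, read 5′ to 3′ along the gene, and capitals mark TAATC, the core of the TAATCC motif of bicoid-type homeodomain factors such as PITX1, and ATAAAA or TATATA, which resemble a TATA box. Both strands were searched.
Krt5, chr15:101712906-101713155, minus strand: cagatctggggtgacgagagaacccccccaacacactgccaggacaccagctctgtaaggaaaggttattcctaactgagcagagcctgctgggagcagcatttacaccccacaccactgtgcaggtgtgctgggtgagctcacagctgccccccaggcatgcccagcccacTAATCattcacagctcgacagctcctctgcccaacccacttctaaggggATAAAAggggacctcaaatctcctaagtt
Krt77, chr15:101869706-101869955, minus strand: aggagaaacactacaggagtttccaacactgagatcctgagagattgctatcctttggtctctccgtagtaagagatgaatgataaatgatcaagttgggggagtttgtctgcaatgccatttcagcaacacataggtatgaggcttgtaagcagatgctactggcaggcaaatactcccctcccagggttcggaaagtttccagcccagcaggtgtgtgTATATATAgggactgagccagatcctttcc
Krt78, chr15:101954288-101954537, minus strand: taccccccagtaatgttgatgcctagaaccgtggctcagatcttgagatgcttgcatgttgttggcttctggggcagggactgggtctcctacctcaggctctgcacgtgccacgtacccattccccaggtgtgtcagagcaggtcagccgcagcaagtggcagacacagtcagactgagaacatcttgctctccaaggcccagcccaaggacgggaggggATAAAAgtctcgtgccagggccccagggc
TAATCC was in none of the 3 windows and in 6.25% of all 32851 promoter windows of that length, while its core TAATC, which every TAATCC contains, was in Krt5 alone of the 3 and in 19.8% of all. ATAAAA began 29 bases before the start of both Krt5 and Krt78 and was in 17.0% of all windows. The other such stretch, TATATA, was in Krt77 alone of the 3, starting 30 and 28 bases before its start in overlapping matches, and in 5.25% of all windows. These letter matches describe the windows and not binding.

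Levels are given in CPM, in which the transcripts of a gene in the summed cells of a section are scaled to a fixed total over all panel genes, and only cells with 10 or more decoded transcripts at quality 20 or above were used. Clusters made without the 5 keratins and without Pitx1 were named from marker genes, and cells named so are written keratinocyte-like, basal-like and so on. The depth per section was 474847 to 749248 transcripts for Control, 2832562 to 5581930 for PITX1+ and 136365 to 2368603 for Buccal sections, with 14280, 87420 and 20761 keratinocyte-like cells. Control 3 was the shallowest for these cells, with a median of 27 transcripts a cell against 44 to 216 in the other unwounded sections used. Buccal 3 held 1 keratinocyte-like cell and was left out of the epithelial comparisons. Pitx1 stood at 56.8, 54.4 and 14.6 CPM in Control sections 1 to 3, at 44.1, 79.3, 1069 and 869 in PITX1+ sections 1 to 4 and at 738 to 1263 in buccal sections, so the female PITX1+ sections did not stand above Control 1 and 2 as a group. Pitx1 thus did not check their label, and whether the panel's Pitx1 probe reads the transgene was not tested. Other measures ran as labelled. The numbers of cells with at least 3 detected genes in PITX1+ 1 and 2 lay 0.332% and 0.0856% from a listed PITX1+ total. Krt16 was 3659 to 13731 CPM over the 4 PITX1+ sections against 314 to 387 in Control. The comparisons of PITX1+ skin were also fitted without them.

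Krt5, the basal chain, did not pass the test as fitted in any comparison of whole keratinocyte-like populations, though it did under some alternatives, and its level was of the same order in every section. It measured 42029.9, 40825 and 59749 CPM in Control 1 to 3 and 25548, 29412, 55578 and 64199 in PITX1+ 1 to 4. Both male PITX1+ sections were near the male Control section and both female PITX1+ sections were below both female Control sections. The log2 fold change, PITX1+ over Control with the slide as a covariate, was -0.34 ± 0.22 (SE; edgeR quasi-likelihood test with Benjamini-Hochberg adjustment over all genes, adjusted p = 0.252), and it passed with DESeq2 (-0.42, adjusted p = 0.0151). In the 6 buccal sections Krt5 ran from 22511 to 36081 CPM with a median of 28013, and all 6 lay below all 3 Control sections. The fitted difference from Control was 0.50 ± 0.27 (adjusted p = 0.117) with TMM scaling but -0.76 (adjusted p = 0.00513) when only the library size was used, and without the shallow Control 3 it passed the other way, at 1.02 (adjusted p = 0.0013), so no direction is given for Krt5 between whole mucosa and skin.

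Krt15 was lower in PITX1+ skin and in buccal mucosa than in Control skin. Its level was 44634, 57478 and 32531 CPM in Control 1 to 3 and 2488, 4885, 10252 and 18845 in PITX1+ 1 to 4, with no overlap between the groups. How many of all 328 genes separate groups of sections so fully was not counted, here or for the keratins below. The log2 fold change was -2.81 ± 0.54 (SE, adjusted p = 0.0127), in a comparison that called 102 of 328 genes tested (31.1%) and 2 of the 5 keratins, Krt15 and Krt77, both lower. The call was lost without PITX1+ 2 (adjusted p = 0.077) and without both female PITX1+ sections, where the value was -1.33 (adjusted p = 0.121), and it was just missed without the slide covariate (adjusted p = 0.0554). The buccal sections held 4380.1 to 7878 CPM with a median of 6578, below every Control section, and the difference from Control was -1.41 ± 0.25 (adjusted p = 4.6e-04). It did not pass over all cells of a section (adjusted p = 0.0788).

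Krt1 was far lower in buccal mucosa than in skin, and its change from Control to PITX1+ skin differed between the 2 skin slides. It measured 11235, 16214 and 35538 CPM in Control 1 to 3 and 37693, 30009.9, 6988 and 12808 in PITX1+ 1 to 4. On the female slide both PITX1+ sections lay above both Control sections, and on the male slide both lay below the single Control section. Over both slides the change was -0.11 ± 0.86 (adjusted p = 0.919), and without Control 3 it was 1.59 (adjusted p = 0.0301), and it was positive too without PITX1+ 3 or PITX1+ 4. Without both female PITX1+ sections it was -2.02 (adjusted p = 0.0511). The change on the male slide minus that on the female slide was -3.83 ± 0.57 on the log2 scale (adjusted p = 0.0205), 1 of the 14 called of 328 tested (4.27%). Pitx1 was also called there at 5.23 ± 0.83 (adjusted p = 0.0246); sex and slide cannot be told apart. The male Control arm is the single section Control 3, the shallowest, so its spread was taken from the other groups and it could not be left out. The Krt1 call was lost without Control 1, Control 2, PITX1+ 1 or PITX1+ 2. Library size scaling moved the median of all genes by 0.67 in this difference and Krt1 to -3.15. In buccal mucosa Krt1 was 10.7 to 277 CPM, with -5.84 ± 0.75 against Control (adjusted p = 4.8e-05) and 5.95 ± 0.76 for PITX1+ skin over buccal mucosa (adjusted p = 2.9e-05). These buccal levels came from 6 to 332 Krt1 transcripts a section, so both sizes rest on low counts.

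Krt77 was high in unwounded Control skin, lower in PITX1+ skin and at most 10.0 CPM in buccal mucosa. Its level was 81019.8, 80195 and 60931 CPM in Control 1 to 3 and 9769.8, 2852, 6112 and 18333 in PITX1+ 1 to 4, and the lowest Control section stood above the highest PITX1+ section. The change was -3.12 ± 0.57 (adjusted p = 0.0115). Without both female PITX1+ sections it was -2.47 (adjusted p = 0.0576), while leaving out any single section kept the call, with adjusted p of 0.00955 to 0.0375. The keratinocyte-like cells of the 6 buccal sections together held 29 Krt77 transcripts among 5312942, and Buccal 6 held 0, which allows a level of up to 14.5 CPM there at 3 counts. The fitted difference of buccal mucosa from Control was -12.38 ± 0.39 (adjusted p = 8.2e-10), in a comparison that called 221 of 321 genes tested (68.8%) and 4 of the 5 keratins, all but Krt5. PITX1+ skin stood at 9.56 ± 0.63 over buccal mucosa (adjusted p = 2.1e-07).

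Over whole keratinocyte-like populations, Krt78 was the only one of the 5 called higher in buccal mucosa than in Control skin. It measured 7954, 7408 and 6744 CPM in Control 1 to 3, 5158, 3008, 976 and 2697 in PITX1+ 1 to 4 and 23556 to 37575 in the buccal sections, with a buccal median of 34338. No 2 of these 3 groups overlapped. Buccal mucosa exceeded Control skin by 3.49 ± 0.29 on the log2 scale (adjusted p = 1.7e-06), and PITX1+ skin lay below buccal mucosa by a fitted -4.64 ± 0.52 (adjusted p = 1.0e-05) in a comparison that called 201 of 324 genes tested (62.0%) and 3 of the 5 keratins, Krt1, Krt77 and Krt78. These 3 passed also without the female PITX1+ sections, at 4.92, 10.11 and -5.19. PITX1+ against Control skin gave -1.32 ± 0.48 and did not pass (adjusted p = 0.0742), although it passed with library size scaling alone (-1.31, adjusted p = 0.0415) and with DESeq2 (-1.38, adjusted p = 0.00858). It passed also with library size without keratin genes and with transcripts over the nucleus only. Krt5 and Krt15 did not pass between PITX1+ skin and buccal mucosa, at -0.56 ± 0.31 (adjusted p = 0.134) and -0.76 ± 0.48 (adjusted p = 0.179), and both turned sign with library size scaling. The median over all genes was -0.06 for PITX1+ against Control, -0.30 for buccal mucosa against Control and 0.49 for PITX1+ against buccal mucosa, so each value reads against that shift. The choice of scaling moved whole comparisons too. With library size alone in place of TMM the median of all genes moved by -0.04 for PITX1+ against Control, -1.33 for buccal mucosa against Control and 1.17 for PITX1+ against buccal mucosa. Against Control, buccal Krt1, Krt77, Krt15 and Krt78 then stood at -6.98, -13.71, -2.79 and 2.15, with the same signs, and PITX1+ skin over buccal mucosa at 7.03 for Krt1, 10.76 for Krt77 and -3.47 for Krt78. The comparisons of PITX1+ skin and of buccal mucosa with Control share the 3 Control sections. Buccal mucosa lay on 1 slide that held no skin, so tissue and slide cannot be told apart in any comparison of it with skin.

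The make-up of the keratinocyte-like cells also differed between the groups, and its part in the values above was not tested. Basal-like cells were 34.6 to 45.7% of them in Control skin, 10.3 to 15.9% in PITX1+ skin, and in the buccal sections 30.8 to 40.1%. Suprabasal-like cells made up 27.2 to 34.2%, 8.41 to 16.4% and 59.2 to 68.5% in the same order. Follicle-like cells were 26.6 to 29.8% in Control and 34.1 to 48.6% in PITX1+ skin, and activated-like cells, named from Krt6a, Krt16, Krt17 and others such as S100a8 and Areg, at most 0.0531% and 4.27 to 16.7%. Hair-like cells were 0.0221 to 0.1% and 4.26 to 15.9% and cycling-like cells 0.468 to 1.27% and 1.23 to 13.6%. Each keratin was therefore also read within a kind of cell. In Control skin Krt5 was highest in basal-like cells (62706 to 103369 CPM) with a range that met the follicle-like one (29171 to 63025), followed by suprabasal-like cells (24086 to 30917) and sebaceous-like cells (4444 to 14999.5). Krt15 was highest in follicle-like cells (66976 to 83871), whose range overlapped that of basal-like cells (40896 to 78919), and lower in suprabasal-like (6511 to 36719) and sebaceous-like cells (6972 to 14137). Krt1, Krt77 and Krt78 each ran in the order suprabasal-like, basal-like and follicle-like, for Krt77 115208 to 136704, 26554 to 46987 and 3626 to 10896 CPM without overlap. For Krt1 the suprabasal-like range (17098 to 59804) overlapped the basal-like one (8858 to 28299). Vascular-like cells, which should lack all 5, held 257 to 3275 CPM of Krt5, 51.5 to 3709 of Krt15, 199 to 1024 of Krt1, 257 to 2252 of Krt77 and 0 to 1024 of Krt78 in Control skin, which serves as a background.

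**Figure D1:**
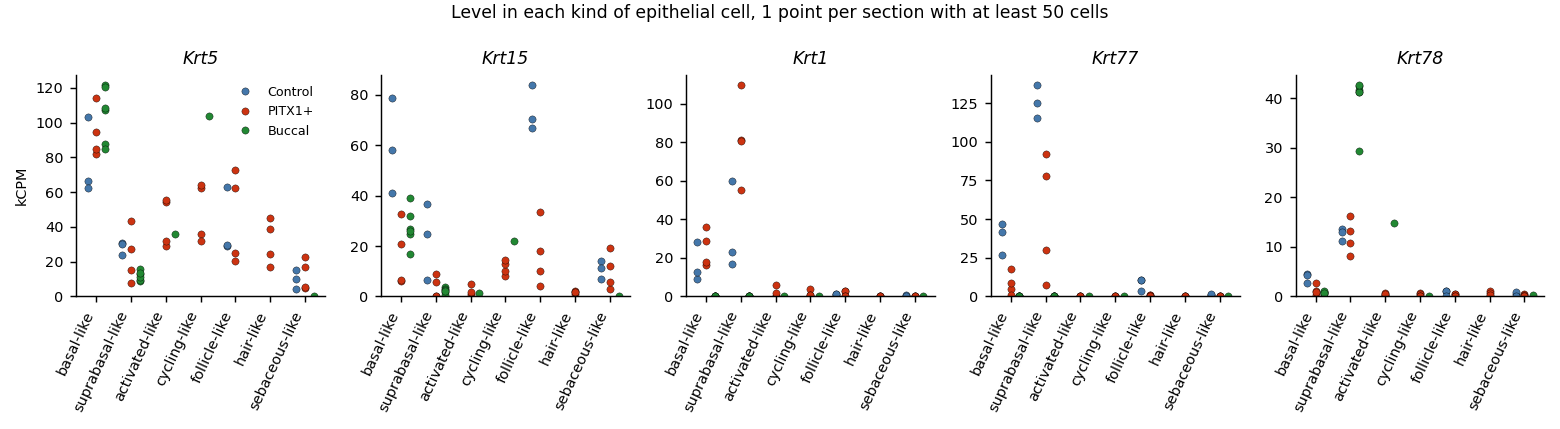
Level of each keratin in kCPM (kilo CPM) in each kind of epithelial cell, with 1 point per section of at least 50 such cells and colours for Control skin, PITX1+ skin and buccal mucosa. Krt77 reaches 136704 CPM in suprabasal-like cells of Control skin and is spread from 7405 to 92345 CPM in PITX1+ skin, and Krt15 is lower in follicle-like cells of all 4 PITX1+ sections than in the 3 Control sections.

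Among basal-like cells no member passed the test between PITX1+ and Control skin, in a comparison that called 13 of 320 genes tested (4.06%). The class was made up differently in the groups, with 72.7% of its Control and 44.8% of its PITX1+ cells in a cluster led by Fcgbp and Clca3a2 and 27.2% and 54.3% in one led by Sostdc1 and Lama3. Krt15 was 58042, 78919 and 40896 CPM in Control 1 to 3 and 6264, 6329, 20809 and 32868 in PITX1+ 1 to 4, without overlap, and its change of -2.36 ± 0.59 had an adjusted p = 0.0781. Krt77 in the same cells gave -2.92 ± 0.76 (adjusted p = 0.0806). Both passed with DESeq2 and with 30 clusters in place of 45, and without the female PITX1+ sections they were -0.65 and -1.06. In follicle-like cells, where no test was planned, Krt15 measured 66976, 83871 and 70599 CPM in Control 1 to 3 and 4143, 10292, 17837 and 33463 in PITX1+ 1 to 4. Among suprabasal-like cells the comparison called 2 of 320 genes tested (0.625%) and no member. Krt15 there was 24796, 36719 and 6511 CPM in Control 1 to 3 and 262, 184, 5584 and 8972 in PITX1+ 1 to 4 (-4.26 ± 1.45, adjusted p = 0.157), passed without Control 3 (-5.71, adjusted p = 3.4e-04) and with DESeq2, and stood at 0.042 without the female PITX1+ sections. Of vascular-like cells in the PITX1+ sections, each cut to 30 random transcripts, 0.65 to 3.52% held Krt15. The Krt15 levels of PITX1+ 1 and 2 may therefore lie near background, and the sizes -4.26 and -5.71 rest on them. The 99.2% of Control suprabasal-like cells in 1 cluster led by Flg2 and Rxra faced PITX1+ cells spread over that cluster (32.9%), a cluster led by Stfa3 and Krt16 (37.1%) and one led by Flg and Hrnr (29.7%). Krt1 in suprabasal-like cells was 17098, 23104 and 59804 CPM in Control 1 to 3 and 109702, 80963, 80861 and 55263 in PITX1+ 1 to 4 (2.07 ± 0.90, adjusted p = 0.214). Krt77 in those cells was 136704, 125018 and 115208 and 30256, 7405, 78163 and 92345 CPM, with the female PITX1+ sections below the male ones (-1.10 ± 0.64, adjusted p = 0.355). Library size scaling moved the median of all genes by -0.89 here and turned the signs of Krt5 and Krt78, neither of which passed. Without the shallow Control 3 the comparison called 88 genes, and Krt1 passed there at 3.64 (adjusted p = 9.1e-04).

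Between buccal mucosa and Control skin all 5 keratins passed among basal-like cells, beside 177 of 274 genes tested (64.6%). Here 93.3% of the buccal cells lay in a cluster led by Mt3 and Col17a1, which held 0.086% of the Control ones. Krt5 was higher by 0.81 ± 0.24 (adjusted p = 0.0109), with 84768 to 121660.0 CPM in buccal and 62706 to 103369 in Control sections, a call that was lost under 4.0 of 8.0 alternatives that kept all sections (adjusted p up to 0.151) and without Control 1 or Control 2. Krt15 was lower by a fitted -0.73 ± 0.28 (adjusted p = 0.0411), and 8 of 9 refits that left out a section lost this call. Krt78 was 544 to 1024 CPM in buccal basal-like cells and 2694 to 4456 in Control ones, a change of -1.96 ± 0.24 (adjusted p = 3.7e-05). Of vascular-like cells in the buccal sections, each cut to 30 random transcripts, 0.37 to 2.68% held Krt78. The low buccal level may therefore lie near background, and the size of the change rests on it. In suprabasal-like cells the same gene went the other way, with 29312 to 42650.3 against 11211 to 13536 CPM and 3.43 ± 0.29 (adjusted p = 1.5e-06), beside 229 of 314 genes tested (72.9%). Krt1 was lower in both kinds, at -6.18 ± 0.56 in basal-like (adjusted p = 5.6e-06) and -6.07 ± 0.79 in suprabasal-like cells (adjusted p = 3.9e-05). Both sizes rest on the low buccal Krt1 counts. Krt77 was at 0 in the basal-like cells of all 6 buccal sections, 891993 transcripts in all, and against 3 counts over the group the Control mean of 38360.1 CPM was at least 11406-fold higher. In suprabasal-like cells Krt5 gave 0.52 ± 0.25 (adjusted p = 0.0861) and turned to -1.24 under library size scaling (adjusted p = 1.5e-04) but to 1.75 with 60 clusters (adjusted p = 0.00128), so no direction is given, while Krt15 (-1.37 ± 0.53, adjusted p = 0.0352), Krt77 (-12.45 ± 0.44, adjusted p = 1.4e-09) and the 2 others passed. With that scaling the median of all genes moved by -0.37 in basal-like and -1.82 in suprabasal-like cells, and suprabasal-like Krt78 stood at 1.66. The suprabasal-like Krt15 value was -0.29 with 30 clusters (adjusted p = 0.542) and -0.11 with 60 (adjusted p = 0.849), and its call was also lost without Control 1, Control 2, Buccal 5 or Buccal 7. The buccal suprabasal-like cells lay in clusters led by Mt4 and Mt3, by Sprr3 and Il1f6, and by Chil3 and Mt4, apart from the Control cluster.

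The keratins were then read by depth, as the distance of each interfollicular cell from its nearest stromal cell. Its median was 24.2, 23.7 and 37.2 µm in Control 1 to 3. In PITX1+ 1 to 4 it was 21.3, 24.3, 19.8 and 18.9 µm. The paper describes epidermal hyperplasia in the induced skin. The distances did not show a thicker epidermis there, so layers at fixed distances need not match between groups. Whether missed stromal cells of low depth lengthened the Control distances was not tested, and the layer comparisons below carry this limit. In Control skin Krt1, Krt77 and Krt78 were higher in superficial cells, over 20 µm from the stroma, than in deep cells, at most 10 µm from it. Krt77 rose from 20245, 28752 and 9460.2 CPM deep to 108115, 105238 and 91565 CPM superficial in Control 1 to 3, a difference of 3.13 ± 0.50 (adjusted p = 0.0017). Krt1 gave 2.44 ± 0.46 (adjusted p = 0.00345) and Krt78 2.69 ± 0.28 (adjusted p = 1.5e-04), beside 64 of 280 genes tested (22.9%) called. The rise was not particular to the 5, since Krt23, another keratin of the panel, rose by 3.75 ± 0.38 in Control skin (adjusted p = 1.5e-04). In PITX1+ skin Krt23 rose by 4.72 ± 0.35, and 7 of the 10 other keratins were called higher there. Krt5 and Krt15 did not pass, at -0.07 ± 0.38 and -0.69 ± 0.42, and the sign of Krt5 turned under some alternatives. Krt15 passed under some alternatives, among them library size scaling (-1.33, adjusted p = 0.038). In PITX1+ skin the same 3 rose, Krt77 by 5.76 ± 0.42, Krt78 by 5.37 ± 0.36 and Krt1 by 4.65 ± 0.37, while Krt15 changed by -1.43 ± 0.33 (adjusted p of 2.9e-07 to 0.00322), beside 144 of 324 genes tested (44.4%). The rise of Krt78 in PITX1+ skin was from 445, 483, 126 and 321 to 11570.3, 6470.1, 3259 and 9631 CPM in sections 1 to 4. The difference between the 2 layer contrasts passed for Krt78 (2.57 ± 0.47, adjusted p = 0.012), Krt77 (2.51 ± 0.57, adjusted p = 0.0202) and Krt1 (2.08 ± 0.58, adjusted p = 0.0483), 3 of the 28 called of 322 genes tested (8.70%), though the Krt1 call was lost under 6 alternatives that kept all sections. With layers split at 15 µm all 3 calls were lost (adjusted p = 0.0759 for each), and that of Krt78 also with transcripts over the nucleus only (adjusted p = 0.0601). Without both female PITX1+ sections the values were 2.35, 2.19 and 1.95, and all 3 passed. Leaving out Control 1 or Control 2 lost all 3 calls, as did leaving out PITX1+ 3 for Krt1 and Krt77 and PITX1+ 2 or PITX1+ 4 for Krt1. The deep layer of Control skin held only 131 to 291 cells a section and its Krt77 was 9460.2 to 28752 CPM, against 365 to 2069.8 in the deep layer of PITX1+ skin, whose superficial cells held 5825 to 65306 CPM. In vascular-like cells of PITX1+ 1 to 4, which serve as background, Krt77 was 329, 228, 27.3 and 57.4 CPM against 464, 365, 614 and 2069.8 in the deep layer, and Krt78 920.4, 489, 27.3 and 17.2 against the deep values above. The deep Krt78 of PITX1+ 1 and 2 was thus not above background, and the sizes of its rise and of its layer difference rest on that low level. Deep Krt77 of the same sections was close to background, so the sizes of its rise and layer difference rest in part on low values too. With library size scaling the median of all genes moved by -0.63 in Control and -0.84 in PITX1+ skin, and Krt77 then rose by 2.48 and 4.94.

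In buccal mucosa Krt78 rose and Krt5 and Krt15 fell from the deep to the superficial cells. Krt78 measured 597 to 1729 CPM deep and 30133 to 45498 superficial over the 6 sections, a difference of 6.84 ± 0.20 (adjusted p = 8.3e-10). Its deep level may lie near the background of buccal vascular-like cells. The sizes of this rise and of its contrast with Control skin rest on that low level. Krt5 measured 84919 to 117418 CPM deep and 7758 to 17765 superficial, a difference of -1.55 ± 0.18 (adjusted p = 9.2e-06). Krt15 changed by -2.20 ± 0.14 (adjusted p = 8.3e-08), beside 215 of 248 genes tested (86.7%) called. Krt1 gave 0.59 ± 0.28 (adjusted p = 0.0696), with a sign that turned under library size scaling, and Krt77 was filtered out as too low. That scaling moved the median of all genes by -1.49 and gave Krt5 -3.05, Krt15 -3.70 and Krt78 5.34, nearer to the change in CPM. Relative to Control skin the layer contrast of buccal mucosa was greater for Krt78 (4.65 ± 0.42, adjusted p = 2.9e-08), 1 of the 80 called higher of 313 genes tested (25.6%). It was lower for Krt15 (-1.02 ± 0.34, adjusted p = 0.0184), Krt5 (-0.99 ± 0.35, adjusted p = 0.0228) and Krt1 (-1.29 ± 0.50, adjusted p = 0.0415), 3 of the 61 called lower of 313 genes tested (19.5%). Of these, the calls of Krt15 and Krt1 were lost with DESeq2 (adjusted p = 0.253 and 0.21) and that of Krt1 with layers split at 15 µm (adjusted p = 0.0992). The calls of Krt15 and Krt5 were lost without Control 1 or Control 2, that of Krt5 also without Buccal 2, and that of Krt1 without Control 1, Control 3, Buccal 1, 2, 6 or 7. Buccal sections held 6 to 332 Krt1 transcripts each over all keratinocyte-like cells. The size of the Krt1 layer contrast thus rests on low counts. Library size scaling moved the median of all genes by -1.35 here, Krt78 to 3.28 and Krt5 to -2.34. In finer steps, the median Krt5 of buccal sections was 103716 CPM at 5 to 10 µm, 28481 at 20 to 30 µm and 3376 at 60 to 80 µm, whereas in Control skin it was 58574, 46052 and 28849.8, the last over 2 Control sections and not 3. Krt78 over the same steps was 1021, 14882 and 70547 CPM in buccal mucosa and 2259.8, 8834 and 12981 in Control skin, the last again over 2. Krt1 in PITX1+ skin had medians of 4294, 44299.8 and 73834 CPM, the last over 3 sections and not 4.

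**Figure D2:**
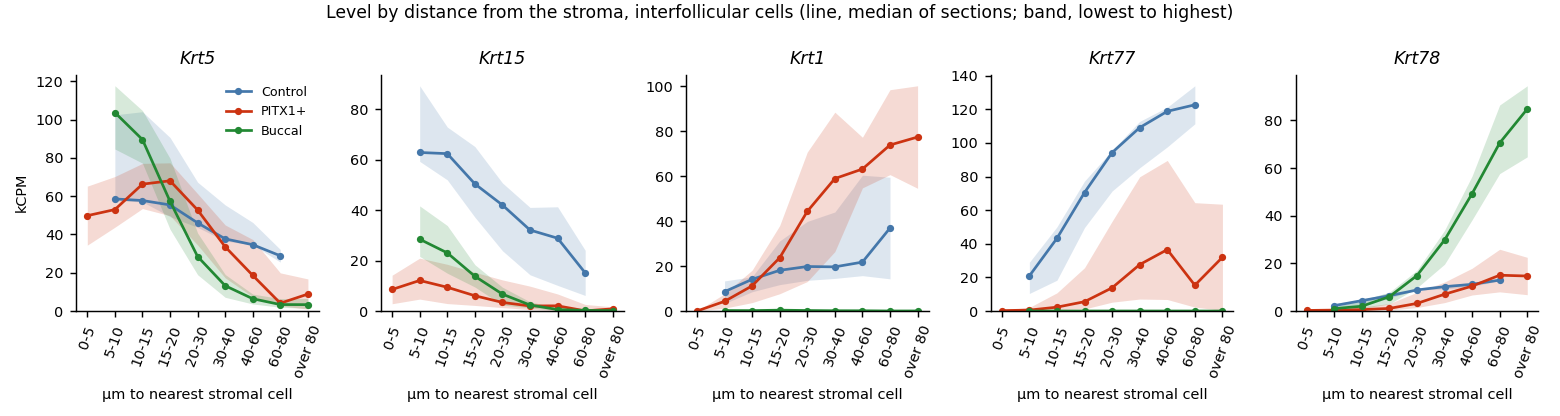
Level of each keratin in kCPM (kilo CPM) in interfollicular cells by distance in µm from the nearest stromal cell, as the median over sections with a band from the lowest to the highest section, for steps with at least 50 cells in at least 2 sections. In skin the medians of Krt5 and Krt15 are lower at 40 to 60 µm than at 10 to 15 µm and those of Krt1, Krt77 and Krt78 are higher, and in buccal mucosa Krt78 reaches 84815 CPM beyond 80 µm while Krt1 and Krt77 stay near 0.

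Cells that held the basal Krt5 and the suprabasal Krt1 together were counted after each keratinocyte-like cell was thinned to 30 transcripts, so that all cells were read at 1 depth. The share with both was 13.9, 18.8 and 25.5% in Control 1 to 3, 9.43, 6.82, 4.54 and 12.7% in PITX1+ 1 to 4 and 0 to 0.56% over the 6 buccal sections, and the groups did not overlap at this depth. The mean was 19.4% ± 5.83 (SD, n = 3) in Control and 8.37% ± 3.50 (SD, n = 4) in PITX1+ skin (two-sided exact permutation test, p = 0.0571, the smallest p that 3 against 4 sections allow). For buccal mucosa the mean was 0.327% ± 0.211 (SD, n = 6; exact permutation p = 0.0238, the smallest for 3 against 6; adjusted over the 2 comparisons, 0.0476). Shallower cells were left out, 26.6 to 56.3% of them in Control, 6.67 to 12.8% in PITX1+ and 0.89 to 5.47% in buccal sections, and unthinned the means were 25.2% in Control, 14.2% in PITX1+ and 2.13% in buccal sections. Thinned to 20 transcripts, Control and PITX1+ skin overlapped, with 7.15 to 16.8% in Control and 4.09 to 9.50% in PITX1+ sections, and their means differed by -5.27 percentage points against -11.0 at 30 transcripts (exact permutation p = 0.114). Without both female PITX1+ sections the difference at 30 transcripts was -10.8 points (exact permutation p = 0.2, the smallest for 2 against 3). In vascular-like cells thinned the same way the share was 0 to 0.0529% in unwounded sections. Among the thinned keratinocyte-like cells, Krt1 was seen in 22.3 to 42.6% in Control, 8.31 to 21.7% in PITX1+ and 0 to 0.80% in buccal sections. Krt5 was seen in 62.8 to 68.1%, 45.7 to 76.1% and 47.8 to 64.2%. A share with both cannot exceed that of Krt1, which fixed a low buccal value beforehand. Whether cells held both more or less often than these single shares give was not tested. The share with both Krt5 and Krt77 was 30.1 to 37.8% in Control, 0.62 to 11.6% in PITX1+ and at most 0.0229% in buccal sections, and that with both Krt1 and Krt77, the neighbouring genes, 20.4 to 38.1%, 1.42 to 12.8% and 0%. Krt5 with Krt78 stood at 7.53 to 8.06% in Control, 0.70 to 3.13% in PITX1+ and 3.63 to 6.67% in buccal sections.

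The position of the transcripts within the cell is a readout that the choice of members did not use. Over the nucleus lay 50.7 to 53.3% of Krt5 and 48.9 to 56.7% of Krt15 transcripts in keratinocyte-like cells of Control sections, against medians over the genes with at least 100 transcripts of 54.4 to 62.7%. For Krt77 the share was 29.1 to 31.6% and among the lowest of those genes (rank 12 to 13 from the bottom). In PITX1+ skin it was 21.7 to 27.8% (rank 3 to 9). Krt78 stood at 43.5 to 47.3% over the nucleus in Control and 30.7 to 38.9% in PITX1+ skin, and at 12.7 to 16.8% in buccal mucosa, while the median of all genes there was 37.4 to 44.7%. These shares were not tested.

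The genes most like each keratin were sought over 55 sums of a kind of epithelial cell in an unwounded section, from 14 sections, by Spearman correlation of log2(CPM + 10). Sums of 1 section share its library, and Buccal 3 entered with its 100 sebaceous-like cells only. Krt5 was most like Itgb4 (rho = 0.95), an integrin chain of hemidesmosomes, Lama3 (0.93), a laminin chain of the basement membrane, and Trp63 (0.84), the master factor of stratified epithelium. Krt15 was most like Col17a1 (0.83), the hemidesmosomal collagen, Ptn (0.77) and Itgb4 (0.71). Krt1 was most like Flg2 (0.84), Krt77 (0.84) and Flg (0.82), both Flg genes being of the filaggrin family of the granular layer, and Krt77 most like Flg2 (0.94), Clca3a2 (0.87) and Krt1. Krt78 was most like Lor (0.88), the main protein of the cornified envelope, Serpinb2 (0.82) and Serpinb3b (0.81), and its rho with Krt1 was 0.28 and with Krt77 0.16. Krt5 and Krt15 had a rho of 0.59.

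The other keratins and the genes of the same layers give the surroundings of the 5. Of the other keratins, 2 of 10 were called higher and 0 lower (median log2 fold change 0.79) in PITX1+ against Control keratinocyte-like cells, where the median over all genes was -0.06 and 31.1% of all genes tested were called. The called ones were Krt16, a keratin of activated epidermis, at 4.66 ± 0.59 with 314 to 387 CPM in Control and 3659 to 13731 in PITX1+ skin, and the oral Krt4 at 3.22 ± 0.71 with 51.1 to 77.7 and 197 to 887. Of the basal adhesion and basal genes, 3 of 13 were called higher and 3 lower (median log2 fold change -0.35), with Lama5 (1.33 ± 0.23) and Cdh3 (1.24 ± 0.23) up and Col17a1 (-2.13 ± 0.26) and Lama3 (-0.77 ± 0.18) down. Of the differentiation and cornified envelope genes, 4 of 20 were called higher and 2 lower (median log2 fold change 0.28), with Sprr1b (4.05 ± 0.91) and Tgm3 (2.76 ± 0.45) the most raised of the called ones and Flg2 (-2.45 ± 0.41) and Dsg1a (-0.94 ± 0.20) the called falls. In buccal mucosa against Control, where the median over all genes was -0.30 and 68.8% of all genes tested were called, 5 of 10 were called higher and 2 lower (median log2 fold change 0.11) of the other keratins, with Krt4 at 11.97 ± 0.38, from 51.1 to 77.7 CPM in Control to 89801 to 108547 in buccal sections. There 15 of 20 were called higher and 3 lower (median log2 fold change 2.74) of the differentiation genes, with Sprr3 (8.87 ± 0.67) up and Flg2 (-9.11 ± 0.31) and Ivl (-6.33 ± 0.57) down, and 4 of 13 were called higher and 3 lower (median log2 fold change 0.53) of the basal genes. Many of the basal and differentiation genes also served to name the kinds of cell, which the 5 keratins did not.

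Pitx1 was read in cells with and without Krt5, since the transgene's activator is driven by the Krt5 promoter. In the male PITX1+ sections it was 1168 and 932 CPM in keratinocyte-like cells with a Krt5 transcript and 209 and 80.7 in those without. In PITX1+ 1 and 2 it was 39.9 and 93.8 with and 52.3 and 46.3 without. In Control 1 to 3 it was 63.2, 55.8 and 19.8 with and 35.3, 49.7 and 0 without, from at most 18 Pitx1 transcripts a group of cells. The Control wound held 58.4 with and 9.91 without, from 35 and 1 Pitx1 transcripts. Cells with Krt5 stood higher there too, but the value without Krt5 rests on that 1 transcript. The PITX1+ wounds held 706 and 355 with Krt5 against 121 and 111 without. In the 6 buccal sections both groups of cells lay between 616 and 1331 CPM. The cells with Krt5 also held more transcripts in all skin sections, in unwounded skin a median of 30 to 106 against 21 to 61 in cells without, and no test was run.

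In wounded skin on day 4 Krt77 was low in suprabasal-like cells near activated-like cells. Krt1 in suprabasal-like cells was also lowest there, by a smaller factor in each of the 3 wounds. In basal-like cells Krt1 was lowest near activated-like cells too, as given below. Over whole keratinocyte-like populations Krt77 was 4881 CPM in the Control wound and 2600.2 and 785 in PITX1+ wounds 1 and 2, while Krt1 was 31007 CPM in the Control wound and 16482 and 19382 in the PITX1+ wounds. Krt15 was 9859.8 CPM in the Control wound and 3180.2 and 1256 in the PITX1+ wounds, Krt5 was 39361 CPM in the Control wound and 49114 and 42650.2 in the PITX1+ wounds, and Krt78 was 6722 CPM in the Control wound and 2168 and 3879.6 in the PITX1+ wounds. With 1 Control section these are values without a test, and wound, slide and day cannot be told apart in setting them against unwounded skin. Within a section each cell was placed by its distance to activated-like cells, taken as that to the fifth nearest. In suprabasal-like cells of the Control wound Krt77 was 624 CPM up to 100 µm from them, 1304 at 100 to 300 µm, 11231 at 300 to 1000 µm and 73046 beyond 1000 µm. Krt1 in the same cells was 44525, 59652, 75927 and 47166 CPM, and Krt78 6239, 12435, 20108 and 26850.4.

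The PITX1+ wounds had the same order of Krt77 over the steps they filled, 6744 and 15369 CPM up to 100 and at 100 to 300 µm in PITX1+ wound 1, and 137, 3626 and 26679 up to 100, at 100 to 300 and at 300 to 1000 µm in PITX1+ wound 2. Krt1 over the same steps was 56748 and 83537 CPM in PITX1+ wound 1 and 60798, 82426 and 77679 in PITX1+ wound 2. Krt15 in basal-like cells also rose with distance, over the 4 steps of the Control wound at 12290.2, 21469, 25496 and 32244 CPM, over the 2 of PITX1+ wound 1 at 6561 and 13482 and over the 3 of PITX1+ wound 2 at 3052, 11778 and 15946. Krt1 in basal-like cells was lowest in the nearest step of each wound too. It was 4593, 8280, 22232 and 21778 CPM over the steps of the Control wound. In PITX1+ wound 1 it was 2235 and 17195 CPM, and in PITX1+ wound 2 1478, 20090 and 22554. Krt5 in basal-like cells varied less, at 83799.6, 100899, 112925 and 91000.0 CPM in the Control wound. It was 78745 and 113088 CPM in PITX1+ wound 1 and 73543, 116718 and 115788 in PITX1+ wound 2. Activated-like cells themselves held 38263 CPM of Krt5, 2786 of Krt15, 5820.0 of Krt1 and 41.3 of Krt77 in the Control wound. The steps hold 91 to 1839 cells of 1 section each, which are not replicates. The suprabasal-like cells of the Control wound lay 59.9% in the cluster led by Stfa3 and Krt16, 24.0% in that led by Flg and Hrnr and 15.7% in that led by Flg2 and Rxra, and the part of this mix in the values was not tested.

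**Figure D3:**
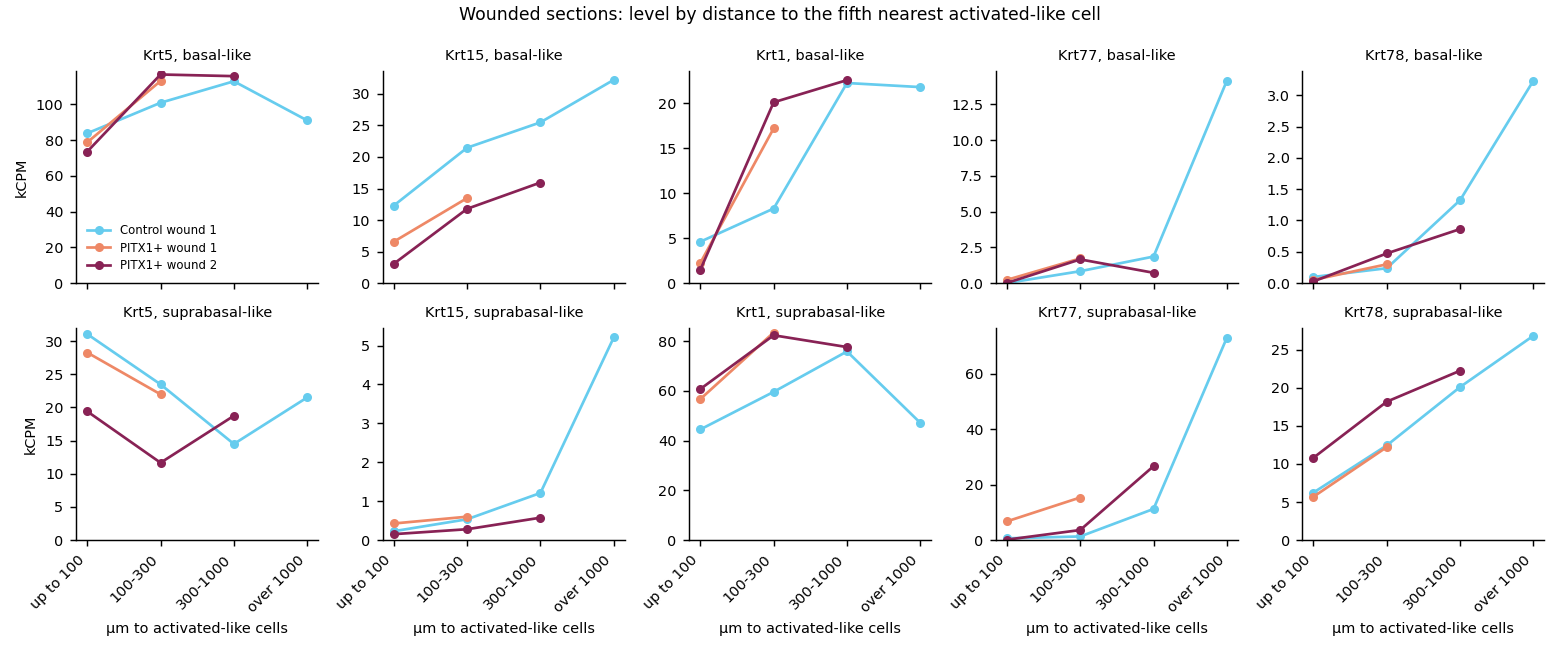
Level of each keratin in kCPM (kilo CPM) in basal-like cells (upper row) and suprabasal-like cells (lower row) of the 3 wounded sections by distance in µm to the fifth nearest activated-like cell, with 1 line per section and 1 point per step of at least 50 cells. Krt77 is lowest in the nearest step of every section, and Krt1 in suprabasal-like cells is also lowest there but differs less between steps.

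The Control wound was also read outwards from its 2 edges. These edges are the ends of the suprabasal-like cells and not a traced wound margin, so that Krt1 reaches them follows in part from the definition. Its suprabasal-like cells left a gap of 2.88 mm, and they were grouped in steps of 0.5 mm away from each side of it. On one side Krt77 was 171, 7045, 68165, 62004 and 73479.9 CPM from the edge outwards, and on the other 33.4, 107, 5427 and 35221. Krt1 over the same steps was 44206, 74168, 54951, 44701 and 44847 CPM, and 45976, 70314, 74920.0 and 40794. Krt78 in the first step was 10966 and 9362 CPM and in the outermost 27771 and 9808, so that it was higher away from the edge on the first side and near the edge value on the second.

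In the PITX1+ wounds, whose gaps were 1.30 and 1.43 mm, Krt77 followed no single course outwards, and the first step with 50 cells lay away from the edge on 3 of 4 sides. In PITX1+ wound 1 it was 0, 662, 4322, 3092, 4121, 2817, 2672 and 6043 CPM on the first side and 668, 57259.8, 41449, 30443 and 23765 on the second, where it fell again beyond its highest step. In PITX1+ wound 2 it was 0, 3975, 21808 and 49312 CPM on the first side and 200.5, 133, 107, 166, 244, 295, 259.5, 356, 2681 and 3626 on the second, where it stayed low out to the last step. Krt1 over all these steps was 21709.7 to 105275 CPM in PITX1+ wound 1 and 41439.9 to 109693 in PITX1+ wound 2.

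**Figure D4:**
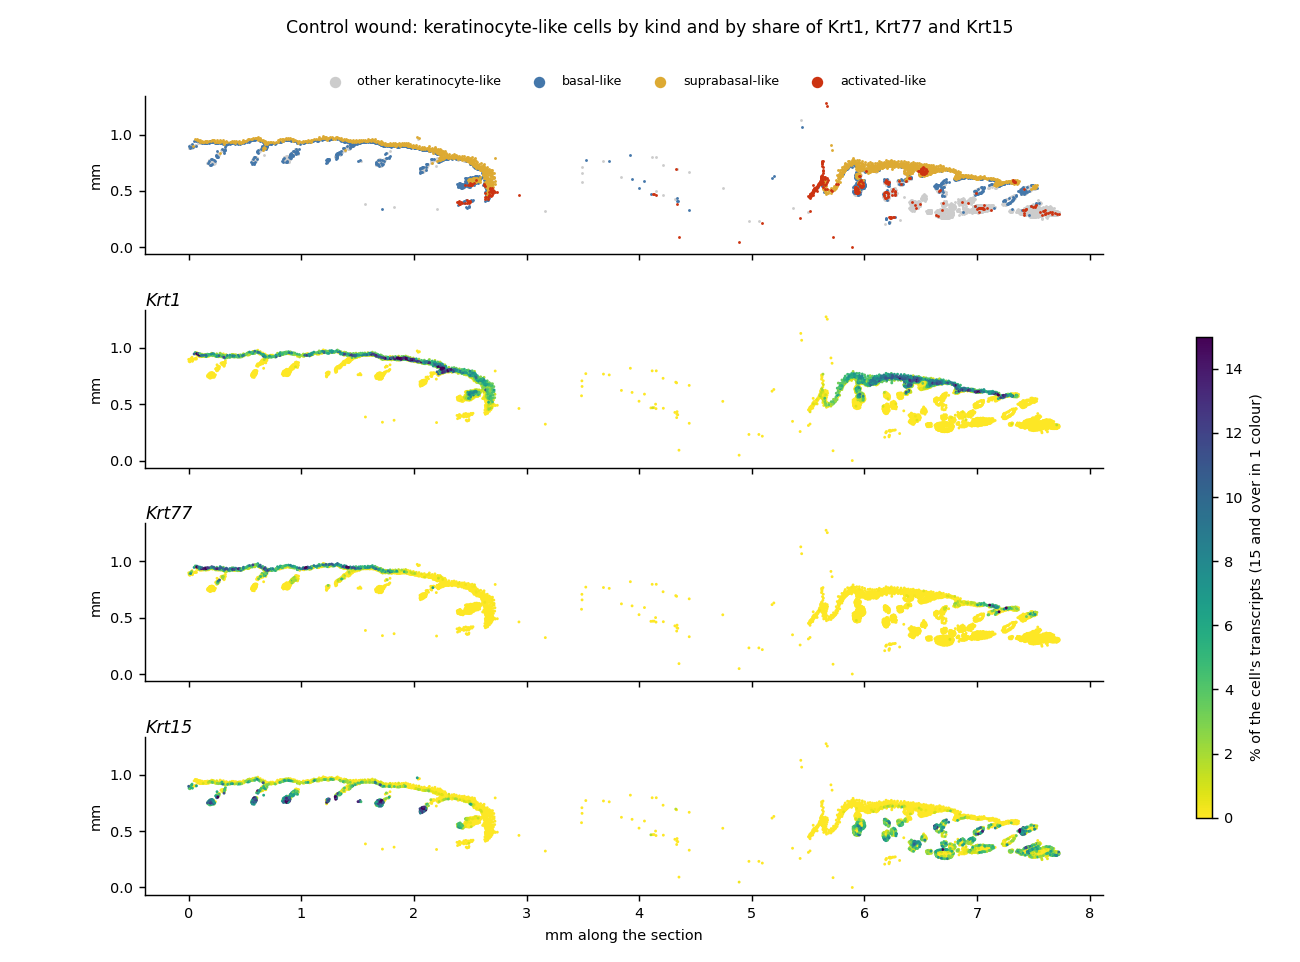
Keratinocyte-like cells of the Control wound at their position in mm, coloured by kind in the top panel and by the share of the cell's transcripts that are Krt1, Krt77 or Krt15 below it. Krt1 runs up to both ends of the gap between suprabasal-like cells, Krt77 is seen in the epidermis away from both ends and Krt15 is seen in the follicles and the lower layer of the uninjured epidermis.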

How the data were processed

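Per the deposited transcript tables of the authors, each row is 1 decoded transcript with its position, gene, quality score and cell, and each cell table gives counts and centroids. Software version, segmentation and genome build are not given in the sources used here. Counts per cell were made from transcripts at quality 20 or above, which gave the deposited count of every cell on all 4 slides. The 4 slides held 6288712 to 10483436 such transcripts, 98.1 to 99.1% of them in cells. Cells chained within 100 µm (wounds 200 µm) formed sections of at least 2000 cells. Cells with at least 10 transcripts were clustered on 322 genes (40 components, 45 clusters; scikit-learn 1.9.0) and named from markers, with no doublet removal. Counts summed per section (50 cells or more) were tested with edgeR 4.0.16 (filterByExpr, TMM, quasi-likelihood, slide as covariate for PITX1+ against Control, section as block for layers), with DESeq2 1.42.0, other scalings, filters, cluster numbers, layer limits and left-out sections as alternatives. The edgeR fit was also run on simulated counts with 1 fixed spread for all genes. Real sections need not share that spread, so the run does not vouch for the p-values here. Because edgeR reports no standard error, each SE of a log2 fold change is its absolute value divided by the square root of the F statistic. It is thus an approximation, least apt where a group holds no counts. Beside the 5 keratins and Pitx1, at most 2 genes a list and direction among those called, and 3 genes most like each keratin, were named. Members and lists were chosen with earlier results of these data known, and the wound distances after their values were seen. All p-values come from sections, and 25 cell identifiers occurred on more than 1 slide.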

Additional observations from a re-analysis of the deposited data

Results flagged for a closer look

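Of 48 groups of sections, 3 held a section set far apart from the others, where chance gives about 1 in 20. Krt78 in suprabasal-like cells was 29312 CPM in Buccal 4 against 41185 to 42650.3 in the other buccal sections, and in superficial cells it was 30133 CPM there against 40163 to 45498. Krt77 in deep cells was 2069.8 CPM in PITX1+ 4 against 365 to 614 in the other PITX1+ sections.

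The difference between superficial and deep cells was itself larger in PITX1+ than in Control skin for Krt1 (2.08 on the log2 scale), Krt77 (2.51) and Krt78 (2.57). Between buccal mucosa and Control skin it differed for Krt78 (4.65), Krt1 (-1.29), Krt15 (-1.02) and Krt5 (-0.99). Layers at fixed distances from the stroma need not match between these groups. The change from Control to PITX1+ skin differed between the male and the female slide for Krt1 (-3.83) and Pitx1 (5.23), where sex and slide cannot be told apart and the male Control arm is 1 section. The Krt1 value no longer passed without Control 1, Control 2, PITX1+ 1 or PITX1+ 2, and no gene was called there without Control 1 or Control 2. With all sections, all of these passed edgeR's test of the difference itself after Benjamini-Hochberg adjustment.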

How the results depend on the processing

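In keratinocyte-like, basal-like and suprabasal-like cells, leaving layers aside, the calls of Krt1, Krt77 and Krt78 between buccal mucosa and skin kept their direction and passed under every setting run, except that Krt78 between buccal mucosa and Control skin no longer passed over all cells of a section (2.95, adjusted p = 0.0521), while those of Krt15 and Krt77 between PITX1+ and Control skin did not pass under all. Over the settings that kept all sections or left out the female PITX1+ sections, values of the 5 keratins kept direction and side of the threshold in 552 cases, passed only under the alternative in 20, no longer passed in 26 and turned sign in 45. The counts of genes called as reported were 102 for PITX1+ against Control keratinocyte-like cells, 221 for buccal against Control keratinocyte-like cells, 201 for PITX1+ against buccal keratinocyte-like cells, 13 for PITX1+ against Control basal-like cells, 177 for buccal against Control basal-like cells, 2 for PITX1+ against Control suprabasal-like cells, 229 for buccal against Control suprabasal-like cells, 64 for layers of Control skin, 144 for layers of PITX1+ skin, 215 for layers of buccal mucosa, 28 for layer difference of PITX1+ skin, 141 for layer difference of buccal mucosa and 14 for slide difference. The cause of each difference listed here was not tested.

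With 30 clusters, the counts of genes called were 46 for PITX1+ against Control basal-like cells and 75 for buccal against Control basal-like cells and log2 fold changes were Krt1 -0.44 in PITX1+ against Control basal-like cells, Krt5 0.14 in layers of Control skin and Krt5 -0.15 in layer difference of PITX1+ skin. With 60 clusters, the counts of genes called were 35 for PITX1+ against Control suprabasal-like cells. With DESeq2, the counts of genes called were 182 for PITX1+ against Control keratinocyte-like cells, 49 for PITX1+ against Control basal-like cells, 61 for PITX1+ against Control suprabasal-like cells and 32 for slide difference and log2 fold changes were Krt5 -0.42 and Krt78 -1.38 in PITX1+ against Control keratinocyte-like cells, Krt77 -0.65 in layer difference of buccal mucosa and Krt5 0.14 in slide difference. Over all cells of a section, the counts of genes called were 67 for PITX1+ against Control keratinocyte-like cells, 125 for buccal against Control keratinocyte-like cells and 118 for PITX1+ against buccal keratinocyte-like cells and log2 fold changes were Krt1 0.22 in PITX1+ against Control keratinocyte-like cells, Krt15 -2.0 and Krt78 2.95 in buccal against Control keratinocyte-like cells and Krt5 0.39 and Krt15 0.20 in PITX1+ against buccal keratinocyte-like cells. With all keratinocyte-like cells in the layers, the counts of genes called were 45 for layer difference of PITX1+ skin and log2 fold changes were Krt5 0.069 in layers of Control skin, Krt5 -0.00115 in layers of PITX1+ skin and Krt5 -0.050 in layer difference of PITX1+ skin. With at least 20 transcripts per cell, the counts of genes called were 18 for layer difference of PITX1+ skin. With superficial cells over 30 µm, the counts of genes called were 18 for layer difference of PITX1+ skin and log2 fold changes were Krt5 -0.16 in layers of PITX1+ skin and Krt5 -0.12 in layer difference of PITX1+ skin. With layers split at 15 µm, the counts of genes called were 10 for layer difference of PITX1+ skin and log2 fold changes were Krt77 -0.38 in layer difference of buccal mucosa. With library size scaling, the counts of genes called were 6 for PITX1+ against Control basal-like cells and 19 for PITX1+ against Control suprabasal-like cells and log2 fold changes were Krt78 -1.31 in PITX1+ against Control keratinocyte-like cells, Krt5 -0.76 in buccal against Control keratinocyte-like cells, Krt5 0.63 and Krt15 0.49 in PITX1+ against buccal keratinocyte-like cells, Krt5 -0.69 and Krt78 -0.066 in PITX1+ against Control suprabasal-like cells, Krt5 -1.24 in buccal against Control suprabasal-like cells, Krt5 -0.71 in layers of PITX1+ skin, Krt1 -0.83 in layers of buccal mucosa and Krt5 0.60 in slide difference. With library size without keratin genes, the counts of genes called were 7 for PITX1+ against Control basal-like cells, 17 for PITX1+ against Control suprabasal-like cells and 16 for layer difference of PITX1+ skin and log2 fold changes were Krt78 -1.43 in PITX1+ against Control keratinocyte-like cells, Krt5 -0.92 in buccal against Control keratinocyte-like cells, Krt5 0.66 and Krt15 0.51 in PITX1+ against buccal keratinocyte-like cells, Krt5 -0.78 and Krt78 -0.16 in PITX1+ against Control suprabasal-like cells, Krt5 -1.42 in buccal against Control suprabasal-like cells, Krt5 -0.58 in layers of PITX1+ skin, Krt1 -0.91 in layers of buccal mucosa and Krt5 0.48 in slide difference. With no filter on genes, the counts of genes called were 18 for layer difference of PITX1+ skin. With no slide covariate, the counts of genes called were 32 for PITX1+ against Control keratinocyte-like cells, 0 for PITX1+ against Control basal-like cells and 0 for PITX1+ against Control suprabasal-like cells and log2 fold changes were Krt15 -2.25 in PITX1+ against Control keratinocyte-like cells. With transcripts over the nucleus only, the counts of genes called were 20 for PITX1+ against Control suprabasal-like cells and 27 for layers of Control skin and log2 fold changes were Krt78 -1.83 in PITX1+ against Control keratinocyte-like cells, Krt5 -0.28 in buccal against Control suprabasal-like cells, Krt5 0.022 in layers of Control skin, Krt5 -0.00681 in layer difference of PITX1+ skin, Krt77 -2.67 in layer difference of buccal mucosa and Krt5 0.019 in slide difference. Without both female PITX1+ sections, an alternative chosen after seeing the data, the counts of genes called were 66 for PITX1+ against Control keratinocyte-like cells, 0 for PITX1+ against Control basal-like cells, 0 for PITX1+ against Control suprabasal-like cells and 68 for layer difference of PITX1+ skin and log2 fold changes were Krt15 -1.33 and Krt77 -2.47 in PITX1+ against Control keratinocyte-like cells, Krt5 0.055 and Krt15 0.11 in PITX1+ against buccal keratinocyte-like cells, Krt5 -0.099 and Krt1 -0.32 in PITX1+ against Control basal-like cells, Krt15 0.042 and Krt78 -0.24 in PITX1+ against Control suprabasal-like cells, Krt5 -0.085 in layers of PITX1+ skin and Krt5 -0.074 in layer difference of PITX1+ skin. The share with both Krt5 and Krt1 kept its direction under the planned settings, although thinning to 20 transcripts moved PITX1+ minus Control to -5.27 percentage points.

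When single sections were left out, the counts ran over 32 to 119 for PITX1+ against Control keratinocyte-like cells, 0 to 52 for PITX1+ against Control basal-like cells, 2 to 88 for PITX1+ against Control suprabasal-like cells, 28 to 70 for layers of Control skin, 0 to 45 for layer difference of PITX1+ skin, 86 to 143 for layer difference of buccal mucosa and 0 to 34 for slide difference. The PITX1+ against Control count was 48 without Control 1, 43 without Control 2 and 32 without PITX1+ 2, the suprabasal-like one 88 without Control 3, and the slide difference and the layer difference of PITX1+ skin called 0 genes without Control 1 or Control 2. The log2 fold changes ran over Krt15 -3.52 to -2.35 in PITX1+ against Control keratinocyte-like cells, Krt1 -0.86 to 1.59 in PITX1+ against Control keratinocyte-like cells, Krt78 -1.69 to -0.61 in PITX1+ against Control keratinocyte-like cells, Krt5 0.39 to 1.02 in buccal against Control keratinocyte-like cells, Krt5 -0.23 to 0.32 in PITX1+ against Control suprabasal-like cells, Krt5 -0.14 to 0.099 in layers of Control skin, Krt5 -0.062 to 0.29 in layers of PITX1+ skin, Krt5 -0.059 to 0.14 in layer difference of PITX1+ skin, Krt5 -0.14 to 0.40 in slide difference and Krt77 -0.28 to 1.84 in slide difference. Krt1 in PITX1+ against Control keratinocyte-like cells turned positive without Control 3, PITX1+ 3 or PITX1+ 4, and its slide difference no longer passed without Control 1, Control 2, PITX1+ 1 or PITX1+ 2. The buccal minus Control share with both Krt5 and Krt1 ran over -21.8 to -16.0 percentage points, with p = 0.0714 without any 1 Control section, the smallest exact permutation p for 2 against 6. No paired analysis was possible by replicate number because the sections carry none in the labels, and slide or section entered the fits instead where a slide held both conditions or a section both layers. Control 3, with a median of 27 transcripts per keratinocyte-like cell, and the deep layer of Control skin, with 131 to 291 cells a section, limit the precision.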
